A study of Mus musculus with 8 samples.

Results

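The EGR, NR4A and IER genes and Srf are immediate early genes or, for Srf, a regulator of them. They were followed here in ribosome-bound RNA from a pulldown aimed at the mouse collecting duct, after ischemia-reperfusion injury (IRI). Markers of other cell types were also present in it, and several of them rose with the injury. The 10 genes were taken by symbol from the count tables: Egr1, Egr2, Egr3, Nr4a1, Nr4a2, Nr4a3, Ier2, Ier3, Ier5 and Srf. All 10 had a row among the 24421 gene symbols, and all 10 were among the 14606 genes with enough counts to be tested. After IRI, 9 of the 10 rose and none fell at an adjusted p below 0.01. Of all tested genes, 25.1% were called higher at that threshold and 49.7% in either direction. The EGR genes led with 9.75-fold to 29.3-fold higher levels.

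The mice carried HoxB7-Cre and Gt(ROSA)26Sor-mCherry-Rpl10a, so that cells with a history of HoxB7-Cre made ribosomes with an mCherry tag (RiboTRAP). The HoxB7 promoter drives Cre in the mesonephric duct lineage, so ureter epithelium is tagged along with that of the collecting duct. In the IRI group (n = 4) blood flow to the kidneys was stopped with vascular clamps for 30 min, and kidneys were taken 9 h after injury. The Sham group (n = 4) carried the same alleles and had the same surgery without clamping. The study's methods describe male mice of 10 to 16 weeks. No earlier or later time after injury was sequenced. The labels number the samples of a group as replicates, and each file is 1 library.

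Immediate early genes are transcribed within minutes of a stimulus from factors that already sit in the cell, and many of their mRNAs are short-lived. Serum response factor (SRF) binds CArG boxes in their promoters together with ternary complex factors, which the ERK cascade phosphorylates, or with myocardin-related cofactors, which actin dynamics control. CREB and its relatives bind cAMP response elements (CRE) in others. In the injured kidney, Egr1 and other early genes are textbook markers of the first response of the tubule to ischemia and reperfusion.

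The promoters of 5 of the genes are printed first because they hold the letters these factors bind. Each sequence is the 250 bases before the transcription start that RefSeq gives in GRCm38.p6, read 5′ to 3′ on the strand of the gene. Capitals mark CArG boxes (CC, 6 bases of A or T, GG) and CRE cores (TGACG, or CGTCA on the other strand).
Srf (chr17:46556163-46556412, minus strand): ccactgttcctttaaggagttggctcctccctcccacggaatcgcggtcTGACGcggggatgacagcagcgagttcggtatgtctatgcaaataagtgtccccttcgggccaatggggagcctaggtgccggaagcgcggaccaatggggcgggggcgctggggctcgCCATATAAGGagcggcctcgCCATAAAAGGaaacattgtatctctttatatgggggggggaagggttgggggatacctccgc
Egr2 (chr10:67537619-67537868, plus strand): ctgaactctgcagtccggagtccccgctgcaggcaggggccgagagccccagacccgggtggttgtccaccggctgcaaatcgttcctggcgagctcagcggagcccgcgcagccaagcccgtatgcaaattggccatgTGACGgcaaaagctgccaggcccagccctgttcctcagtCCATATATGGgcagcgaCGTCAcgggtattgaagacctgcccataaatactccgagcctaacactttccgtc
Nr4a1 (chr15:101266596-101266845, plus strand): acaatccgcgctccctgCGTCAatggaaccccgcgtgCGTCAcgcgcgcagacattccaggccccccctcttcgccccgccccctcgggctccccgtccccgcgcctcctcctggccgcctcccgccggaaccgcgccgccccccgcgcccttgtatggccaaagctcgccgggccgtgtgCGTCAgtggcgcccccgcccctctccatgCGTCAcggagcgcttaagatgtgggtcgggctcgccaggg
Nr4a2 (chr2:57124004-57124253, minus strand): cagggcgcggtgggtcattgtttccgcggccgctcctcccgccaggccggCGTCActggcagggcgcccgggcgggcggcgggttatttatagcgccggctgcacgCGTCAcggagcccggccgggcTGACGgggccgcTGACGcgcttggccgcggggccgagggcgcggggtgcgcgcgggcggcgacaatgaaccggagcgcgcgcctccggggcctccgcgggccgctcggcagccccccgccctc
Nr4a3 (chr4:48045055-48045304, plus strand): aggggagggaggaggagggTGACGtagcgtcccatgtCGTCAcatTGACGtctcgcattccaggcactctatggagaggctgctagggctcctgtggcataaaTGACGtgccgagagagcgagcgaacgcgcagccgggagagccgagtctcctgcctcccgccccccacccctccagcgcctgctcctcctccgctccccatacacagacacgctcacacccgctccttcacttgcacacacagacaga
The table of promoter sequences was searched for 7 of the 10 genes on both strands. Egr1, Egr3 and Ier2 were not searched. For Egr2 the table holds 5 starts, and the one of the principal GENCODE transcript was used.

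Srf held 2 CArG boxes, 82 to 73 and 62 to 53 bases before its start. SRF is known to act on its own promoter through such boxes. Of all 32851 promoter windows of this length, 0.0183% held at least 2 CArG boxes and 1.47% held at least 1. Egr2 held 1, at 72 to 63 bases before its start. The other 5 genes searched held none in the window.

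The NR4A promoters shared another feature. Nr4a1, Nr4a2 and Nr4a3 each held 4 CRE cores, and 0.137% of all windows held at least 4. In Nr4a1 they lay 233, 213, 69 and 40 bases before the start, and in Nr4a2 they lay 200, 144, 123 and 111 bases before it. In Nr4a3 they lay 231, 213, 205 and 147 bases before the RefSeq start, which is 152 bases from the start in the GENCODE annotation. Egr2 held 2 cores, and Srf held 1. At least 1 core occurred in 17.8% of all windows, so the single core of Srf is a common feature.

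A full CRE (TGACGTCA) was in none of the 7 windows and in 1.55% of all windows. The EGR site (GCGTGGGCG or GCGGGGGCG) occurred in Nr4a1 and Srf and in 3.06% of all windows, and the NR4A monomer site NBRE (AAAGGTCA) was in none of the 7 and in 1.34% of all. Ier3 and Ier5 held none of these motifs. No overlap between different motifs was removed, and a core can lie inside a full CRE. A match says that the letters are there, and no binding was measured.

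The levels below are CPM, the counts of a gene per 1000000 counts in genes of its library, scaled between libraries by TMM, a factor that sets the bulk of genes equal. Counts in genes ran from 13518005 to 27496808 in IRI libraries and from 25210299 to 29285812 in Sham libraries, with the lowest in IRI replicate 2. Of all lines counted, 43.3% to 52.3% named no gene in IRI libraries, against 33.3% to 37.7% in Sham libraries. Each gene was tested by edgeR's quasi-likelihood test with Benjamini-Hochberg adjustment over all 14606 tested genes. The change was broad: 49.7% of all tested genes were called in either direction, 25.1% as higher and 24.6% as lower, at an adjusted p below 0.01. A rise of any single gene is read against that share. The submitters' animal names fall into a low number range (IRI replicates 1 to 3 and Sham replicate 1) and a high one (IRI replicate 4 and Sham replicates 2 to 4). The sources used here do not say what the ranges stand for, and tests were repeated with the range as a covariate.

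**Figure D1:**
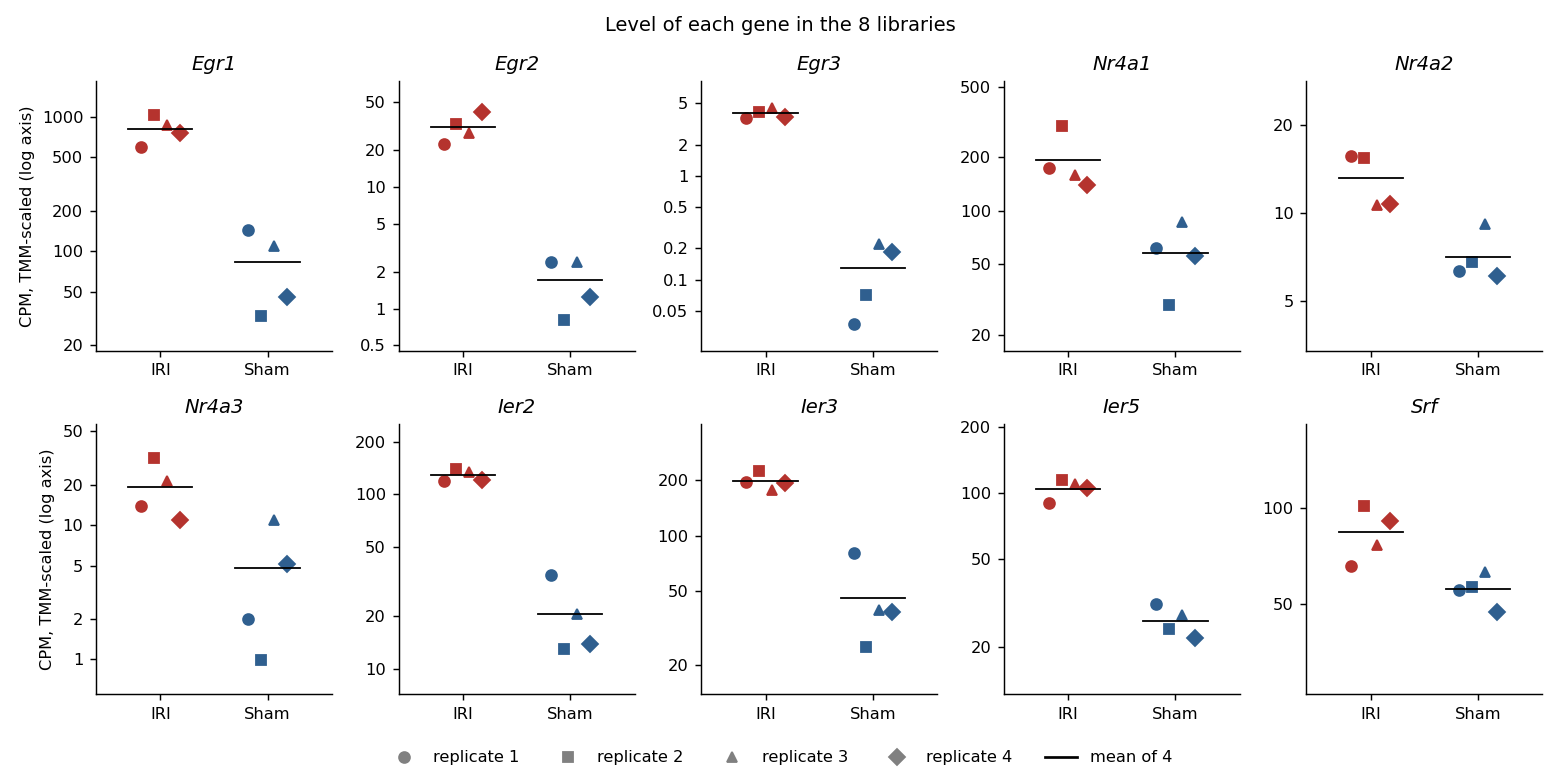
Level of the 10 genes in each library, in TMM-scaled CPM on a log axis that differs between panels. Red symbols are the 4 IRI libraries, blue symbols the 4 Sham libraries, the symbol shape is the replicate number of the labels, and black lines are group means. In every panel the lowest IRI library lies above the highest Sham library, by a factor of 16.4 for Egr3 and of 1.01 for Nr4a3.

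Egr1, a zinc finger factor that binds GC-rich sites, was the most abundant member of its family. It had 595, 1030.2, 870.0 and 757.6 CPM in IRI replicates 1 to 4, against 145.0, 32.8, 109.8 and 46.1 CPM in Sham replicates 1 to 4. The groups did not overlap, and the Sham libraries spread 4.42-fold among themselves, with replicates 1 and 3 high and 2 and 4 low. Egr1 averaged 813 ± 183 CPM in IRI and 83.4 ± 53.1 CPM in Sham (SD, n = 4 each) and rose 9.75-fold (log2 fold change 3.29 ± 0.47 SE, edgeR adjusted p = 2.3e-04). The gene lies at chr18:34859823-34864984 in GRCm38, the assembly of mm10.

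Egr2, a relative best known from myelination and hindbrain patterning, had 22.6, 32.8, 28.0 and 41.3 CPM in IRI replicates 1 to 4, against 2.43, 0.814, 2.44 and 1.26 CPM in Sham replicates 1 to 4. The lowest IRI library was 9.27 times the highest Sham library. Egr2 averaged 31.2 ± 7.95 CPM in IRI and 1.73 ± 0.827 CPM in Sham (SD, n = 4 each) and rose 17.9-fold (log2 fold change 4.16 ± 0.39 SE, edgeR adjusted p = 1.1e-05). It lies at chr10:67535475-67542188.

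Egr3, known for roles in lymphocytes and muscle spindles, had the largest fold change of the 10 and the lowest level. It had 3.64, 4.13, 4.55 and 3.65 CPM in IRI replicates 1 to 4, against 0.0373, 0.0708, 0.222 and 0.185 CPM in Sham replicates 1 to 4. The Sham values rest on 1, 2, 7 and 5 counts, so the size of the fold change is uncertain. The summed counts, 296 in IRI and 15 in Sham, gave a depth-scaled ratio of 29.7 with an exact 95% interval of 17.7 to 53.8, which covers counting error only. The fitted rise was 29.3-fold (log2 fold change 4.87 ± 0.41 SE, edgeR adjusted p = 8.8e-06). Egr3 lies at chr14:70077203-70082614. Egr4, the remaining family member, was too rare to test, with 11 counts over the IRI libraries and 1 over the Sham libraries.

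Nr4a1, an orphan nuclear receptor also called Nur77, was the main NR4A transcript. It had 175, 299, 159 and 140.1 CPM in IRI replicates 1 to 4, against 61.4, 29.4, 86.3 and 55.6 CPM in Sham replicates 1 to 4. IRI replicate 2 stood above the other IRI libraries, and Sham replicate 2 was the lowest of all. Nr4a1 averaged 193 ± 71.8 CPM in IRI and 58.2 ± 23.4 CPM in Sham (SD, n = 4 each) and rose 3.32-fold (log2 fold change 1.73 ± 0.33 SE, edgeR adjusted p = 0.00157). With the animal number range as a covariate its edgeR adjusted p was 0.0113. The gene lies at chr15:101254269-101274795.

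Nr4a2 (Nurr1), an orphan receptor needed for dopamine neurons, changed less. It had 15.7, 15.4, 10.7 and 10.8 CPM in IRI replicates 1 to 4, against 6.35, 6.80, 9.15 and 6.10 CPM in Sham replicates 1 to 4. IRI replicates 3 and 4 lay only just above Sham replicate 3. The mean was 13.1 ± 2.81 CPM in IRI and 7.10 ± 1.40 CPM in Sham (SD, n = 4 each), and Nr4a2 rose 1.85-fold (log2 fold change 0.89 ± 0.19 SE, edgeR adjusted p = 0.00286). Its edgeR adjusted p was 0.0111 when libraries were scaled by total counts, 0.0172 with that covariate and 0.0106 to 0.0115 without Sham replicate 1, 2 or 4. Nr4a2 lies at chr2:57106830-57124003 on the minus strand.

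Nr4a3 (Nor1) was the one gene that did not pass the test. It had 13.9, 31.5, 21.3 and 11.0 CPM in IRI replicates 1 to 4, against 1.98, 0.991, 10.9 and 5.17 CPM in Sham replicates 1 to 4. The groups met at 11.0 CPM in IRI replicate 4 and 10.9 CPM in Sham replicate 3, and the Sham libraries spread 11.0-fold. The mean was 19.4 ± 9.13 CPM in IRI and 4.76 ± 4.46 CPM in Sham (SD, n = 4 each), with a fitted ratio of 4.03 (log2 fold change 2.01 ± 0.63 SE, edgeR adjusted p = 0.0224). Without Sham replicate 3 the ratio was 7.09 (edgeR adjusted p = 0.0033), and limma-voom on all 8 libraries gave an adjusted p of 0.00975. Other settings went the other way. The edgeR adjusted p was 0.0895 with the animal number covariate, 0.0588 without IRI replicate 2 and 0.0548 without Sham replicate 1. Nr4a3 lies at chr4:48045153-48086447.

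Ier2, a small nuclear protein induced by growth factors, was uniform after IRI. It had 118, 139.9, 134.5 and 120.5 CPM in IRI replicates 1 to 4, against 34.6, 12.9, 20.5 and 13.9 CPM in Sham replicates 1 to 4. The IRI libraries differed among themselves by 1.18-fold and the Sham libraries by 2.68-fold, with Sham replicate 1 highest. Ier2 averaged 128 ± 10.5 CPM in IRI and 20.5 ± 9.98 CPM in Sham (SD, n = 4 each) and rose 6.27-fold (log2 fold change 2.65 ± 0.25 SE, edgeR adjusted p = 5.3e-05). It lies at chr8:84661331-84662852 on the minus strand.

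Ier3 (IEX-1), a stress-induced protein that affects survival and ERK signaling, followed the same order of libraries in Sham. It had 194, 222, 177 and 194 CPM in IRI replicates 1 to 4, against 80.9, 25.1, 39.5 and 38.9 CPM in Sham replicates 1 to 4. Sham replicate 1 again stood above the other Sham libraries but below every IRI library. The mean was 197 ± 18.8 CPM in IRI and 46.1 ± 24.1 CPM in Sham (SD, n = 4 each), and Ier3 rose 4.27-fold (log2 fold change 2.09 ± 0.29 SE, edgeR adjusted p = 3.1e-04). It lies at chr17:35821684-35822923.

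Ier5, an immediate early protein known to act with heat shock factor HSF1, had the smallest standard error of the 10. It had 89.9, 114, 109.6 and 105.7 CPM in IRI replicates 1 to 4, against 31.2, 24.2, 27.8 and 22.0 CPM in Sham replicates 1 to 4. No library stood apart in either group. Ier5 averaged 105 ± 10.6 CPM in IRI and 26.3 ± 4.07 CPM in Sham (SD, n = 4 each) and rose 3.98-fold (log2 fold change 1.99 ± 0.12 SE, edgeR adjusted p = 2.6e-06), the smallest adjusted p of the 10. It lies at chr1:155096361-155099636 on the minus strand.

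Srf itself, the factor behind the CArG boxes printed above, moved least. It had 65.8, 101, 76.6 and 91.0 CPM in IRI replicates 1 to 4, against 55.4, 56.5, 63.0 and 47.0 CPM in Sham replicates 1 to 4. The lowest IRI library was 1.04 times the highest Sham library. The mean was 83.7 ± 15.6 CPM in IRI and 55.5 ± 6.57 CPM in Sham (SD, n = 4 each), and Srf rose 1.51-fold (log2 fold change 0.59 ± 0.14 SE, edgeR adjusted p = 0.00487). The call was lost with scaling by upper quartiles (edgeR adjusted p = 0.0138) or by total counts (0.0339), with the same covariate (0.0115), when IRI replicate 2 (0.0117) or 4 (0.0134) was left out, and when Sham replicate 1 (0.0161), 2 (0.0138) or 4 (0.0171) was left out. Srf lies at chr17:46548329-46556175 on the minus strand. The exons of none of the 10 genes overlap another annotated gene.

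**Figure D2:**
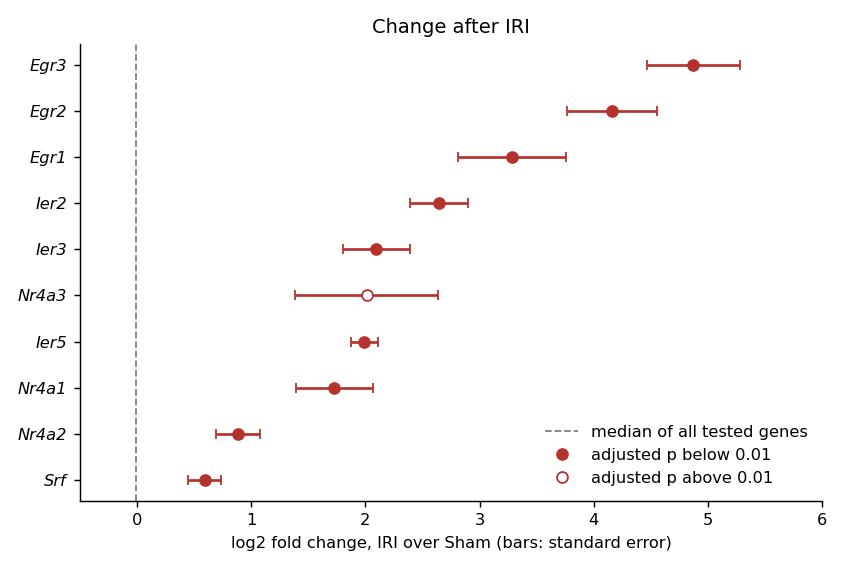
Log2 fold change of the 10 genes, IRI over Sham, from edgeR with standard errors from limma-voom. Filled points have an adjusted p below 0.01, the open point (Nr4a3) does not, and the dashed line is the median of all tested genes, -0.01. The fold changes run from 0.59 for Srf to 4.87 for Egr3.

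Across the 10 genes the median log2 fold change was 2.05, against -0.01 over all tested genes. The rise was at least 2-fold and called at an adjusted p below 0.01 in 7 genes, against 14.0% of all tested genes. Nr4a3, with a fitted ratio of 4.03, was not called. In TMM-scaled CPM every IRI library was above every Sham library for all 10 genes, against 28.8% of all tested genes. The margin was only a factor of 1.01 for Nr4a3 and 1.04 for Srf. For both, the libraries of the groups overlap when scaled by total counts. The genes were chosen with results of these data known, and these counts describe them.

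Levels of different genes were compared as CPM per kilobase of exon. In IRI libraries Egr1 (181 ± 40.9) and Ier3 (174 ± 16.6) were highest, and their libraries overlapped. Ier2 (84.3 ± 6.90) and Nr4a1 (55.0 ± 20.4) came next and overlapped through the 85.1 of Nr4a1 in IRI replicate 2. Ier5 (32.0 ± 3.22) and Srf (28.9 ± 5.41) overlapped as well. Egr2 (9.18 ± 2.34) stood apart below them. Nr4a3 and Nr4a2, both at 3.24, could not be ordered, and Egr3 was lowest at 0.906 ± 0.0984. With the longest transcript in place of all exons, Nr4a1 stood at 75.7 and Egr3 at 1.01 in IRI libraries.

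The order in Sham libraries was different. Ier3 was highest at 40.8 ± 21.3, and Srf (19.2 ± 2.27), Egr1 (18.6 ± 11.8), Nr4a1 (16.6 ± 6.66) and Ier2 (13.5 ± 6.56) followed with overlapping libraries. Ier5 was at 8.04 ± 1.24, Nr4a2 at 1.75 ± 0.345, Nr4a3 at 0.795 ± 0.745, Egr2 at 0.510 ± 0.243 and Egr3 at 0.0292 ± 0.0201. Egr1 thus stood below Srf in the mean of Sham libraries and above every gene but Ier3 in each IRI library, with no test of the order.

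Whether the members of a family responded by different amounts was asked with their count ratios within a library, which do not depend on the scaling between libraries. The 9 ratios were compared by exact two-sided permutation tests with Benjamini-Hochberg adjustment over the 9. With 4 libraries against 4 the smallest possible p is 0.0286, and 4 of the 9 ratios reached it. None passed 0.05 after adjustment. With only 4 of 9 tests at the smallest possible p none can pass, so the adjusted values do not decide the question.

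The Egr1/Egr2 ratio averaged 4.71 ± 0.36 on the log2 scale in IRI and 5.46 ± 0.31 in Sham (SD, n = 4 each; difference -0.75, exact permutation p = 0.0286, adjusted 0.0643). Egr1 made up 95.8% of all EGR counts in IRI libraries and 97.6% in Sham libraries, and Egr2 made up 3.74% in IRI and 2.22% in Sham. The Egr1/Egr3 ratio differed by -1.50 (exact permutation p = 0.0571, adjusted 0.103), with the 1 count of Egr3 in Sham replicate 1 setting the widest value.

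In the NR4A family the Nr4a1/Nr4a2 ratio averaged 3.83 ± 0.34 on the log2 scale in IRI and 2.95 ± 0.56 in Sham (SD, n = 4 each; difference 0.89, exact permutation p = 0.0286, adjusted 0.0643). Nr4a2 made up 6.09% of NR4A counts in IRI libraries and 11.3% in Sham libraries. Both ratios with Nr4a3 overlapped between the groups, with Nr4a2/Nr4a3 from -1.03 to 0.18 in IRI and from -0.25 to 2.76 in Sham on the log2 scale.

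In the IER family Ier2 was higher relative to both others in every IRI library than in any Sham library. The Ier2/Ier3 ratio averaged -0.62 ± 0.15 on the log2 scale in IRI and -1.15 ± 0.26 in Sham (SD, n = 4 each; difference 0.54, exact permutation p = 0.0286, adjusted 0.0643). The Ier2/Ier5 ratio averaged 0.29 ± 0.09 in IRI and -0.47 ± 0.45 in Sham (difference 0.76, exact permutation p = 0.0286, adjusted 0.0643). Ier2 made up 29.9% of IER counts in IRI libraries and 21.6% in Sham libraries, and the groups did not overlap in this share. The Ier3/Ier5 ratio differed by 0.22 (standard error 0.29, exact permutation p = 0.514), which is within the spread of the libraries.

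**Figure D3:**
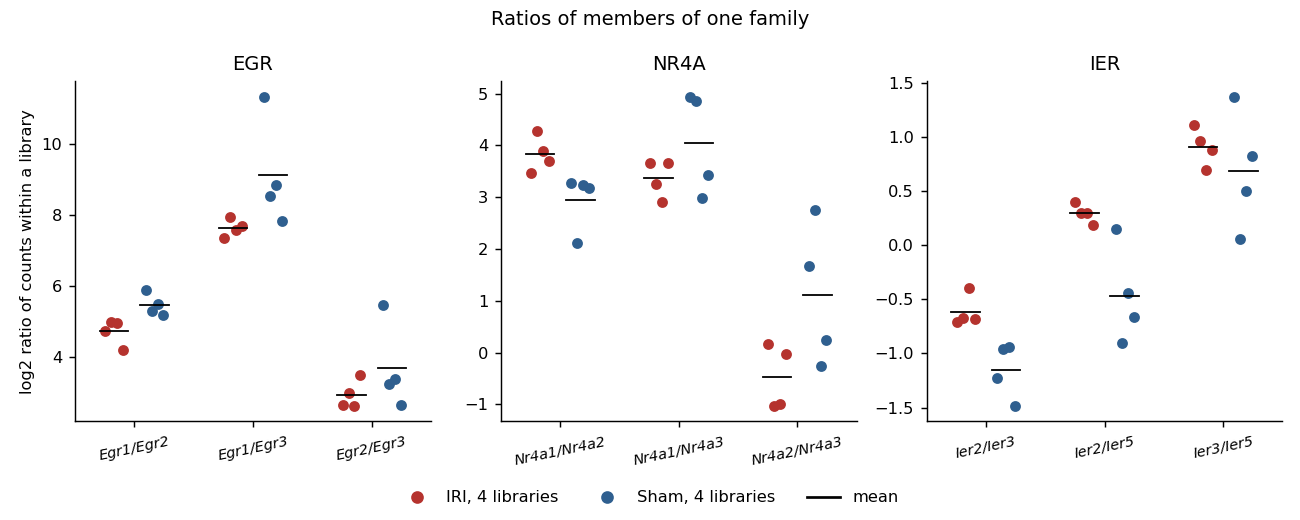
Log2 ratio of the counts of 2 members of a family within each library, for the EGR, NR4A and IER genes. Red points are the 4 IRI libraries, blue points the 4 Sham libraries, and black lines are means. The groups separate for Egr1/Egr2, Nr4a1/Nr4a2, Ier2/Ier3 and Ier2/Ier5 and overlap for the other 5.

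The spread within a group was partly shared between the genes. IRI replicate 2, the library with the fewest counts, was above the group mean of log2 CPM for all 10 genes and highest for 7, and IRI replicate 1 was lowest for 6. Among Sham libraries replicate 3 was highest for 6 genes and replicate 1 for the other 4, while replicate 2 was lowest for 6. The deviations were widest for Nr4a3, at 1.72 in Sham replicate 3 and -1.67 in Sham replicate 2 on the log2 scale. Over the 45 pairs of genes, Pearson's r of the deviations was positive in 40 and had a median of 0.44 (range -0.41 to 0.93, 8 libraries). All deviations come from the same 8 libraries and share their depth and scaling, so this is a description.

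**Figure D4:**
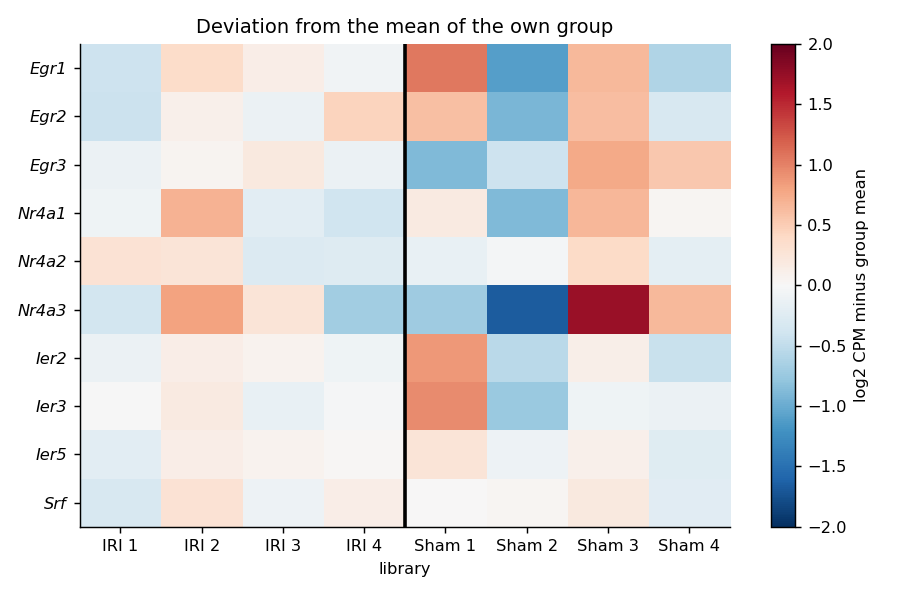
Deviation of each gene from the mean log2 CPM of its own group in the 4 IRI libraries (left of the line) and the 4 Sham libraries (right). Red is above and blue below the group mean. The IRI 2 column is above the mean for 10 of 10 genes, the Sham 3 column for 9 and the Sham 2 column for 1.

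All 10 genes had higher means in IRI within both ranges of animal numbers. The log2 difference ran from 0.53 (Srf) to 5.57 (Egr3) in the low range and from 0.57 (Nr4a2) to 4.88 (Egr2) in the high range, with 1 mouse on one side of each and no test.

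Markers of the labelled cell type and of others moved with the injury. Summed markers of principal cells, the main cells of the collecting duct, were at 2910.0 to 4770.0 CPM in IRI libraries and 15320.0 to 19060.0 CPM in Sham libraries, with 10 of 10 lower. Summed intercalated cell markers were at 971 to 1604 CPM in IRI and 3653 to 4530.0 CPM in Sham, with 10 of 10 lower. In RNA of many cells, fewer cells of a type, less of its RNA per cell and a larger share of RNA from other cells cannot be told apart. Hoxb7 itself averaged 25.9 ± 5.41 CPM in IRI and 42.9 ± 3.90 CPM in Sham (SD, n = 4 each).

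Markers of cells outside the HoxB7 lineage were present in both groups. Summed proximal tubule markers were at 11690.0 to 24020.0 CPM in IRI libraries and 8396 to 11180.0 CPM in Sham libraries, with 8 of 12 higher. Marker sums hold different genes and are not scaled by gene length, so they compare the groups and do not rank the cell types. Neutrophil markers summed to 57.2 to 163 CPM in IRI and 2.80 to 6.08 CPM in Sham, with 8 of 8 tested higher and Ngp and Camp at 0 counts in Sham. Macrophage markers summed to 77.6 to 141 CPM in IRI and 41.5 to 62.0 CPM in Sham (4 of 10 higher), and endothelial markers to 309.6 to 628 CPM in IRI and 178 to 256 CPM in Sham (5 of 10 higher). Fibroblast and pericyte markers summed to 1669 CPM in IRI replicate 2 and to 289 to 582 CPM in the other IRI libraries, against 235 to 369.8 CPM in Sham, with 1 of 10 higher. Thick limb and distal convoluted tubule markers summed to 1911 to 2858 CPM in IRI and 1850.0 to 2731 CPM in Sham, with none of 6 called, and lymphocyte markers to 12.3 to 25.3 CPM in IRI and 16.3 to 22.4 CPM in Sham, with 1 of 2 tested lower. Markers of urothelium, which lines the ureter tagged by HoxB7-Cre, summed to 79.4 to 239 CPM in IRI and 210.4 to 338 CPM in Sham, with 2 of 6 lower, and smooth muscle markers to 159 to 239 CPM in IRI and 113 to 159 CPM in Sham, with 2 of 6 higher. All of these cells can express immediate early genes, and the part of each cell type in the rises above was not tested.

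The pathways that lead to these genes were described by lists of their other parts, and each count is to be read against the 25.1% of all tested genes called higher and the 24.6% called lower. NAB1 and NAB2 are corepressors that bind EGR proteins. Nab1 rose 2.35-fold, to 196 ± 11.3 CPM in IRI, against 83.7 ± 7.66 CPM in Sham (SD, n = 4 each; edgeR adjusted p = 4.4e-06). Nab2 had a ratio of 1.26 (edgeR adjusted p = 0.0282), and 42.2% of its exon length overlaps another gene, whose reads cannot be told apart without strand. Of the 3 tested genes of this list, with Ier5l, 1 was called higher and none lower.

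Among the 7 SRF cofactors, 4 were called higher and 1 lower, with a median log2 fold change of 0.40. Elk3 (2.31-fold) and Elk4 (2.24-fold), ternary complex factors that ERK phosphorylates, rose, and Mkl2 (1.32-fold), a myocardin-related factor also called MRTF-B, rose less. Elk1, the third ternary complex factor, had a log2 fold change of -0.16 (edgeR adjusted p = 0.392). Scai, a repressor of the MRTF and SRF complex, fell 2.13-fold, to 15.3 ± 1.76 CPM in IRI, against 32.6 ± 0.923 CPM in Sham (SD, n = 4 each; edgeR adjusted p = 1.7e-05). Myocd, the cofactor of smooth muscle and heart, was also called higher, at 1.87 ± 0.545 CPM in IRI and 0.270 ± 0.103 CPM in Sham (SD, n = 4 each), a gene below the level set for naming.

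Cytoskeletal targets of SRF and MRTF rose with few exceptions: 19 of 22 were called higher, none lower, with a median log2 fold change of 1.68. Pdlim7, a PDZ and LIM protein of actin stress fibers, rose 6.16-fold, Fhl2, a LIM protein that is an SRF target and partner, rose 5.32-fold, and Filip1l rose 4.51-fold. The 3 not called were Cnn1, Myl9 and Pdlim5. Exon overlap with other genes was largest for Tagln (67.9%) and Vcl (25.5%), both called higher. Acta2 and Cnn1 are also among the smooth muscle markers summed above.

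In the ERK cascade 8 of 18 genes were called higher and 3 lower, with a median log2 fold change of 0.18. With TMM scaling the share called lower was below that of all tested genes (24.6%). Nras rose 3.47-fold, and the RSK kinases Rps6ka2 and Rps6ka3, which act below ERK, rose 3.08-fold and 3.01-fold. Rps6ka5 (MSK1), a nuclear kinase that phosphorylates CREB, fell 2.02-fold, and Sos1, an exchange factor for RAS, and Araf, a RAF kinase, fell 1.48-fold and 1.38-fold. The number of genes called lower was 6 with scaling by upper quartiles or total counts, so the comparison with all tested genes depends on the scaling. These are RNA levels, and no phosphorylation was measured.

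Of 8 CREB factors and coactivators, 4 were called higher and 2 lower, with a median log2 fold change of 0.35. The share called lower was near the 24.6% of all tested genes, and 1 of the 8 was called lower with the animal number covariate. Crem, which encodes activators and the inducible repressor ICER, rose 2.44-fold, Atf1 rose 1.70-fold and the coactivator Crtc3 rose 1.45-fold. Creb1 fell 1.28-fold and Crtc1 fell 1.66-fold. The counts of Crem cannot tell its isoforms apart. Of the 3 retinoid X receptors, which pair with Nr4a1 and Nr4a2, Rxrb fell 1.88-fold, Rxra had a log2 fold change of -0.28 (edgeR adjusted p = 0.0252), and Rxrg was below 1 CPM in both group means.

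Other immediate early genes moved with the 10. Of 39 tested, 36 were called higher and 1 lower, with a median log2 fold change of 2.55. Fosl1, a FOS family member, rose most, with a fitted 361-fold rise that rests on 1 to 16 counts in each Sham library, and 57.2% of its exon length overlaps another gene. Ptgs2, the prostaglandin synthase COX-2, rose 69.0-fold, and Fosb rose 42.2-fold. Sgk1, a kinase that is both an immediate early gene and an aldosterone target in the collecting duct, was the one gene that fell (1.98-fold), and Rgs2 and Gem were not called.

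**Figure D5:**
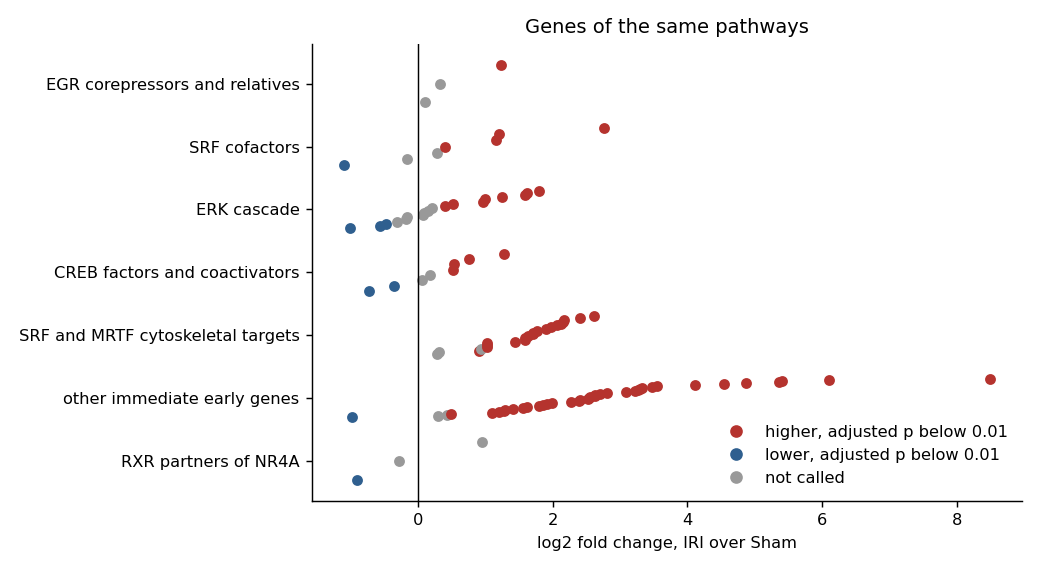
Log2 fold change, IRI over Sham, of the tested genes of 7 lists around the 10 genes, 1 point per gene. Red points were called higher, blue points lower and grey points not called at an adjusted p of 0.01. Of the SRF and MRTF cytoskeletal targets 19 of 22 points are red, and of the other immediate early genes 36 of 39.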

How the data were processed

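RNA bound to mCherry-tagged ribosomes was pulled down from whole kidneys and sequenced (TruSeq RNA with Ribo-Zero, HiSeq) in 4 IRI and 4 Sham mice. The authors aligned reads to mm10 with TopHat2 2.1.1, counted them with HTSeq and deposited raw counts per gene symbol, 1 file per library, with no normalization, and tested them with DESeq2. Which annotation, counting mode and strand option HTSeq had is not stated. Lines that name no gene (33.3% to 52.3%) were left out of library sizes and tests.

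From the deposited counts, edgeR 4.0.16 (R 4.3.3) was run on all 8 libraries after filterByExpr (minimum count 10, minimum total 15) with TMM scaling, and the quasi-likelihood test was adjusted over 14606 genes, with the study's threshold of 0.01. Standard errors came from voom in limma 3.58.1. The biological coefficient of variation was 0.206. Ratios within a library were log2 of counts plus 0.5. Gene positions and exon lengths came from GENCODE on GRCm38, and promoters from RefSeq (GRCm38.p6). The fits were tested on simulated data.

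All 10 genes are described. From each pathway list the text names the 3 called genes with the largest rise and the 3 with the largest fall at a mean of at least 5 CPM. Other list genes named (Nab2, Ier5l, Egr4, Elk1, Myocd, Acta2, Cnn1, Myl9, Pdlim5, Tagln, Vcl, Rxra, Rxrg, Rgs2 and Gem) were chosen after their values were seen. The genes and lists were chosen with earlier results of these data known. Each library was taken as 1 mouse, after its animal name, and litters are not stated.

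Alternatives were other scalings, other filters, DESeq2 1.42.0, limma-voom, a replicate block, the range of animal numbers as covariate, a threshold of 0.05 and each library left out in turn.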

Additional observations from a re-analysis of the deposited data

How the results depend on the processing

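The calls of Egr1, Egr2, Egr3, Ier2, Ier3 and Ier5 were kept under every scaling, filter, tool and design and without each library in turn, and no log2 fold change of the 10 genes turned negative. The number of the 10 called was 9 with edgeR and DESeq2, 10 with limma-voom, 7 with total counts, 6 with the animal number covariate and 7 to 10 with 1 library left out. Total counts shifted the median of all genes to -0.20 (upper quartiles to -0.12) and gave 2784 genes called higher and 4912 lower, against 3667 and 3595. Calls lost, with log2 fold changes, were Nr4a1 with the covariate (1.54), Nr4a2 with total counts (0.69) and the covariate (0.84), and Srf with upper quartiles (0.48), total counts (0.40) and the covariate (0.63). Nr4a3 was called with limma-voom (2.32). Without 1 library, Nr4a2 ran from 0.78 to 1.02, Nr4a3 from 1.66 to 2.83 and Srf from 0.49 to 0.69.

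Same-numbered libraries did not deviate together (correlations -0.54 to -0.07), so the numbers gave no sign of paired mice. With 4 libraries per group this cannot exclude pairing. With a replicate block 6 of the 10 were called, Nr4a1 at 1.74, Nr4a2 at 0.88 and Srf at 0.58 no longer passing, and 5582 genes in all.

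Log2 ratio differences within a range of animal numbers were, in the low one, -3.72 for Egr1/Egr3, -2.71 for Egr2/Egr3, -1.68 for Nr4a1/Nr4a3, 0.18 for Ier2/Ier5 and -0.45 for Ier3/Ier5, and in the high one -1.12 for Egr1/Egr2 and 0.41 for Egr2/Egr3. Adding 5 counts turned Egr2/Egr3 to 0.28, since it damps the 1 to 7 counts of Egr3 in Sham. For the other values that moved the cause was not tested.

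Depth limits Egr3 in Sham and Egr4 in both groups. The single time of 9 h and the other cell types in the pulldown limit what the levels describe.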

Other observations

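The 3 tested genes whose log2 CPM over the 8 libraries was most like the mean of the 10 genes were Atf1, Rhbdf1 and Pdgfb, as a description over libraries that share the group difference. Atf1, a CREB relative, had a Pearson's r of 0.9975 and 38.6 ± 2.15 CPM in IRI and 22.8 ± 2.75 CPM in Sham (SD, n = 4 each). Rhbdf1, an inactive rhomboid protein of EGFR ligand trafficking, had an r of 0.9974 and 73.6 ± 5.95 CPM in IRI and 39.9 ± 4.15 CPM in Sham (SD, n = 4 each). Pdgfb, a growth factor of pericytes, had an r of 0.9958 and 113 ± 24.9 CPM in IRI and 14.0 ± 4.41 CPM in Sham (SD, n = 4 each). Pdgfb rose 8.02-fold (edgeR adjusted p = 1.2e-05) and Atf1 1.70-fold, so genes with a high r here had fold changes of different size.

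Rpl10a, whose protein carries the tag, averaged 11.2 ± 0.914 CPM in IRI and 5.28 ± 1.00 CPM in Sham (SD, n = 4 each; log2 fold change 1.08 ± 0.15 SE, edgeR adjusted p = 2.9e-04). Counts of the tagged transgene cannot be told apart from those of the gene itself. Alignments that were not unique, which count for no gene, made up 29.5% to 34.3% of lines in IRI libraries and 20.9% to 22.8% in Sham libraries. How many of them came from Rpl10a is not known.

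Several of the genes were more even between IRI libraries than between Sham libraries. The highest library was 1.18 times the lowest in IRI and 2.68 times in Sham for Ier2, 1.26 times in IRI and 3.22 times in Sham for Ier3, and 1.73 times in IRI and 4.42 times in Sham for Egr1. Srf went the other way, at 1.54 times in IRI and 1.34 times in Sham, and Nr4a2 was near equal, at 1.475 times in IRI and 1.501 times in Sham. These spreads were not tested.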
